A study of Sus scrofa with 22 samples.

Results

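The amount of messenger RNA per cell was estimated in pig embryos by setting the summed counts of pig genes in each cell against the summed counts of spike-in RNA in the same cell. The spike-in was the RNA mixture of the External RNA Controls Consortium (ERCC). The members were all 1458 embryonic cells of the 1647 cells in the series, in the authors' 37 groups, found by solving each group's deposited mean profile for the cells it averages. Content below means the log2 of pig gene counts divided by ERCC counts of a cell, so that a difference of 1 is a doubling.

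The study sequenced polyadenylated RNA of single cells from pig embryos of embryonic day (E) 0 to E14, in 20 libraries (P1 to P20), and of stem cell lines from E10 epiblast, in 2 libraries of 93 and 96 cells. The cleavage groups were Oocyte, Zygote, 2C, 4C and 8C (the 2-cell, 4-cell and 8-cell stages), followed by Morula_E4. The later groups were preICM and preTE of E5, ICM and TE of E6, Epiblast, Hypoblast and TE of E7 to E10, and Ectoderm, Mesdoderm (mesoderm, spelled as in the deposited columns), Endoderm or Defi_Endoderm (definitive endoderm) of E11 to E14, with TE of E12 to E14. ICM stands for inner cell mass and TE for trophectoderm. No group carried a genetic change or a treatment according to the labels. Averaged over the groups of a lineage, all measured marker genes stood above the median of the other groups for the oocyte, trophectoderm, epiblast, hypoblast, mesoderm, endoderm and ectoderm lists, as did 5 of 6 for the morula list. Single groups went against this, above all at E14. In counts per 1e+06 pig counts (CPM), TBXT was 0 in Mesdoderm_E14, NANOG 0.06 in Ectoderm_E14 and the endoderm gene GSC 0.22 in Defi_Endoderm_E14.

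An egg is a large cell that stores messages made during its growth, and cleavage divides its cytoplasm among ever smaller cells. Stored messages are read, shortened at their poly(A) tails and destroyed, while the genome of the embryo is switched on, in the pig mainly around the 4-cell stage. Library methods that equalise totals between cells hide such differences in amount, and spike-in RNA added in equal amount to every cell keeps them visible.

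The spike-in was counted in every cell. A cell had from 158 to 17054 ERCC counts, with a median of 6213, and all 92 ERCC species were seen. Library medians ran from 2251 in P1 to 9616 in P15, and the spread of ERCC counts over the cells of a library (coefficient of variation 28.9 to 48.1%) was below that of pig gene counts (42.7 to 83.7%). The sources used here do not give the amount of spike-in added to a cell, so levels compared across libraries assume an equal amount. A unit was the cells of 1 group in 1 library, and its level was the median over them. Units needed 5 or more cells, apart from Oocyte (1) and the Zygote, 2C and 4C groups (2). This gave 65 units with 1447 cells. The labels do not say that libraries came from separate embryos, so every p measures the spread between these libraries alone. All 96 cell barcodes were used in several libraries, and no 2 cells held identical counts.

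Content over all cells had a median of 5.63, which is 49.4 pig counts per ERCC count, and ran from 2.16 to 10.09. Cells of the same unit differed by a standard deviation (SD) of 0.65 (median of 63 units). Libraries of the same group differed by an SD of 0.38 (median of 23 groups, range 0.03 to 1.65). Different groups of the same library and day differed by 0.45 (median absolute difference of 28 pairs). An SD and an absolute difference are unlike measures. The gap between the lowest and highest unit of a group, nearer to the latter, had a median of 0.53 (23 groups). The spread between libraries of a group was thus not smaller than the usual difference between groups.

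**Figure D1:**
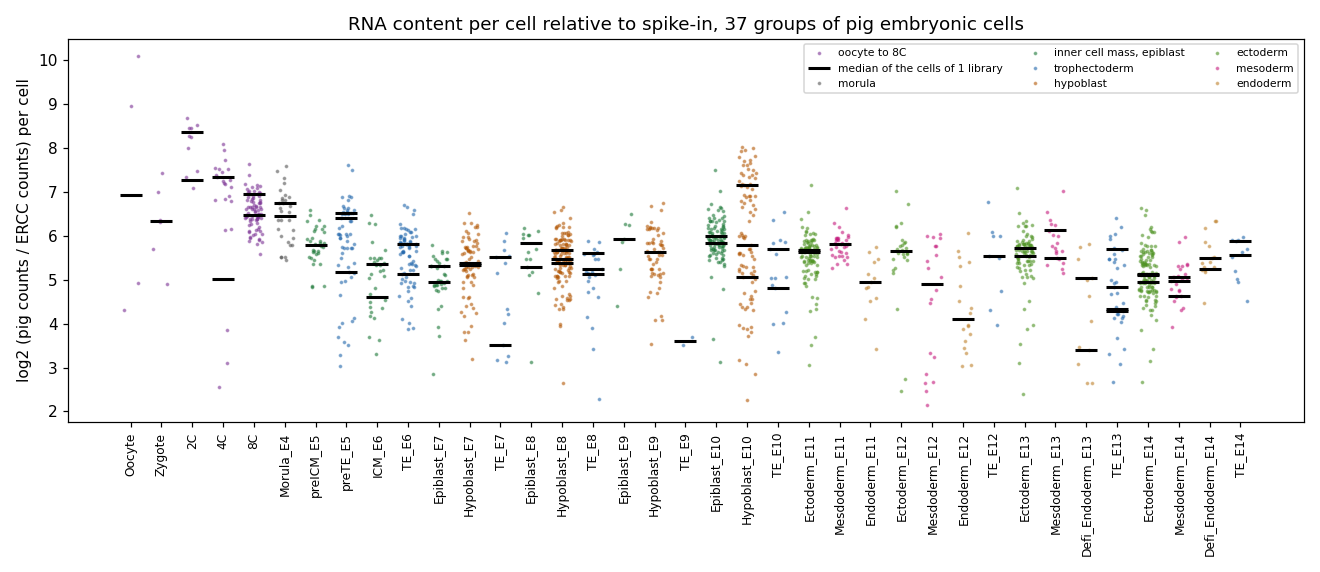
RNA content of each cell as log2 of pig gene counts over ERCC counts (vertical axis), in the 37 groups in stage order (horizontal axis); each point is a cell, coloured by lineage, and each black bar is the median of a group in 1 library. The highest bar is 2C of P1 at 8.37, and the bars of the groups after the morula lie between 3.40 and 7.14.

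By medians of cells the highest level of any group was that of 2C, at 7.82 ± 0.77 (SD, n = 2 libraries, P1 and P13). From summed counts Oocyte, held by P1 alone, stood at 8.16, which is not a like measure. In P1 alone, summed counts of all genes but mitochondrial and ribosomal protein ones, given below, were lower in Oocyte than in 2C. Within P1, the library that holds most of these stages, the median was 6.93 in Oocyte (4 cells), 6.34 in Zygote (6 cells), 8.37 in 2C (8 cells), 7.34 in 4C (17 cells) and 6.45 in Morula_E4 (24 cells). The 4 oocytes fell far apart, at 4.30, 4.92, 8.95 and 10.09, so their median describes none of them. The lower oocytes had 12.2% and 11.98% of their counts from the mitochondrial genome, against 0.98% and 1.05% in the upper ones, and whether damage to these cells had a part was not tested. The 6 zygotes lay at 4.90, 5.70, 6.32, 6.36, 6.99 and 7.43, and their mitochondrial share ran the other way, with 8.48% in the lowest and 1.75% in the highest.

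The 8 2C cells of P1 ran from 7.33 to 8.69. All but the lowest of them lay above all 6 zygotes. Within P1 the median of 2C was higher than that of Zygote by 2.03 on the log2 scale, with 1 library and no test. The 2 2C cells of P13 had 7.08 and 7.47. The 17 4C cells of P1 ran from 6.14 to 8.09, while the 6 of P13 lay at 2.56, 3.11, 3.87, 6.16, 6.79 and 7.25, in a low and a high set of equal size. The low set had 2.83 to 5.87% mitochondrial counts and the high set 1.12 to 1.90%.

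4C was lower than 2C in both libraries that hold the 2 stages, with unit medians of 7.34 (P1) and 5.01 (P13) in 4C, against 8.37 (P1) and 7.28 (P13) in 2C. The mean difference was -1.64 (exact two-sided permutation test over units, p = 0.667, where 0.333 is the smallest p that 2 units against 2 allow). That test did not pair the units by library, although P1 and P13 each hold both stages. The 8C cells lay in other libraries, 15 in P19 with a median of 6.94 (6.35 to 7.39) and 65 in P20 with a median of 6.48 (5.58 to 7.64). 8C differed from 4C by 0.53 (p = 1.0 by the same test), and by -0.63 without P13. Morula_E4, at 6.45 in P1 and 6.75 in P2, differed from 8C by -0.12 (p = 0.667). None of these steps could reach 0.05 with so few libraries.

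Multiplied by the number of cells that the stage name gives, content per embryo was nearly equal in 4C and 2C of P1, 9.34 and 9.37 on the log2 scale. By medians it was not equal over all stages of P1, with 6.93 in Oocyte and 6.34 in Zygote. The oocyte median describes none of its 4 cells. The lower oocytes had 4.30 and 4.92, while the upper ones, at 8.95 and 10.09, lay on both sides of the 4C and 2C values. In the 8C libraries content per embryo was 9.94 (P19) and 9.48 (P20), if each embryo had 8 cells. In P13 it was 7.01 in 4C and 8.28 in 2C. Per cell, the P1 values for 4C and 2C correspond to 162.3 and 330.4 pig counts per ERCC count.

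**Figure D2:**
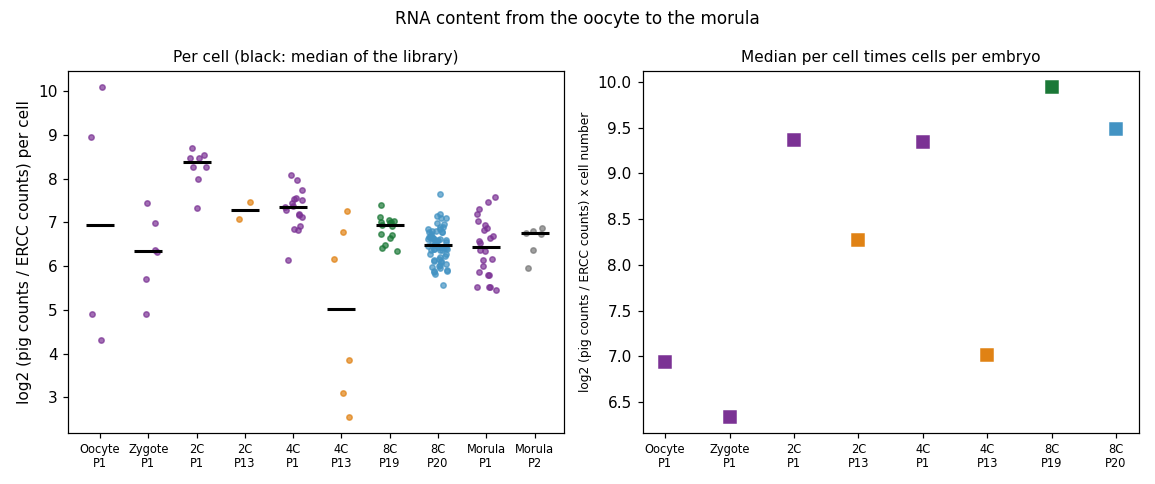
Content from Oocyte to morula by library, per cell on the left (log2 of pig counts over ERCC counts, black bar at the median of the library) and as the median times the number of cells per embryo on the right (same log2 unit). The oocytes and the 4C cells of P13 split into low and high cells, and 4C and 2C of P1 nearly coincide per embryo at 9.34 and 9.37.

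The mean of the cleavage-stage units was above that of the later units in each of the 3 libraries that hold both, though single units overlapped in P1 and P13. Zygote of P1 lay below Morula_E4 of P1, and in P13 4C (5.01) lay below preTE_E5 (6.52) and Ectoderm_E14 (5.11). P1 had 7.25 in its cleavage units and 6.45 in Morula_E4, P13 had 6.14 and 5.53 in its later groups, and P19 had 6.94 and 5.23. The mean difference was 1.04 ± 0.59 (SD, n = 3 libraries), higher in 3 of 3, with p = 0.25 by the exact two-sided sign-flip permutation test, the smallest p that 3 libraries allow. In P13 the later units include preTE_E5, whose cells had a median of 1760 ERCC counts against 6232 in Ectoderm_E14 of the same library, and whose part in the difference was not tested.

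A fit of unit levels on group and library together put 2C at 1.99, 4C at 0.35, Oocyte at 0.58 and Morula_E4 at 0.77 above the mean of the 21 groups joined through shared libraries, and 8C at 2.01 above the mean of another 13 groups. Among the same 21 groups, Zygote was at -0.0079. Later groups there included preICM_E5 at 0.49 and preTE_E5 at 0.53, both above 4C, and Epiblast_E10 at 0.82, above Oocyte, 4C and Morula_E4.

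By unit medians without adjustment for library, the groups after the morula mostly lay at lower levels, which were not tested against each other between days. Unit medians were 5.80 in preICM_E5 and 5.17 to 6.52 in preTE_E5, then 4.61 and 5.35 in ICM_E6 and 5.13 and 5.80 in TE_E6. Epiblast averaged 5.13 ± 0.26 at E7, 5.56 ± 0.38 at E8 and 5.91 ± 0.12 at E10 (SD, n = 2 libraries each), and 5.94 in the single library of E9. Ectoderm averaged 5.65 ± 0.03 at E11 and 5.63 ± 0.14 at E13 (n = 2 each) and 5.06 ± 0.11 at E14 (n = 3), with 5.65 in the single library of E12. The 3 Ectoderm_E14 units, at 4.94, 5.11 and 5.14, all lay below the 5 earlier ectoderm units, none of which shared a library with them. Stage and library cannot be told apart there. In the fit on group and library, Ectoderm_E14 was at -0.22 and Ectoderm_E11 at -0.86, the opposite order. Ectoderm of E12 and E13 fell in the other set of groups, so the fit does not compare them with E14. TE_E13 ranged widely over 4 libraries, at 4.29, 4.34, 4.84 and 5.70.

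The makeup of the RNA also differed between stages. Classes of genes were followed as sums per ERCC count. The first holds the 13 protein genes of the mitochondrial genome, and the next the genes of the cytosolic ribosomal proteins (66 measured). Others hold fixed lists such as the stored messages of the oocyte. The last, called all other genes, holds every pig gene outside the mitochondrial and ribosomal protein classes, the oocyte genes included.

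Messages for ribosomal proteins did not follow total content. In P1 their log2 level per ERCC count was 1.70 in Oocyte, 1.12 in Zygote, 1.10 in 2C, 2.36 in 4C and 2.45 in Morula_E4, while all other genes went through 8.12, 6.26, 8.26, 7.28 and 6.50. In 4C of P13 the level was -0.0029, and in 8C it was 0.19 (P19) and -0.56 (P20). Morula_E4 of P2 had 2.81. These genes made up 0.69% of pig counts in 2C of P1, 0.99% and 0.74% in 8C and 5.50% and 6.86% in Morula_E4. Mitochondrial transcripts moved less between these 2 groups, 8C and Morula_E4, at 1.57 and 1.54 in Morula_E4 and 1.57 and 1.26 in 8C. At earlier stages they differed widely between libraries. Medians of cells were 2.01 (P1) and 0.29 (P13) in 2C, and 1.51 (P1) and -0.33 (P13) in 4C. Transcripts of oocyte genes stood at 0.71 in 2C of P1, -0.89 in 4C of P1, -0.61 and -0.78 in 8C, and -1.95 and -3.59 in Morula_E4.

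**Figure D3:**
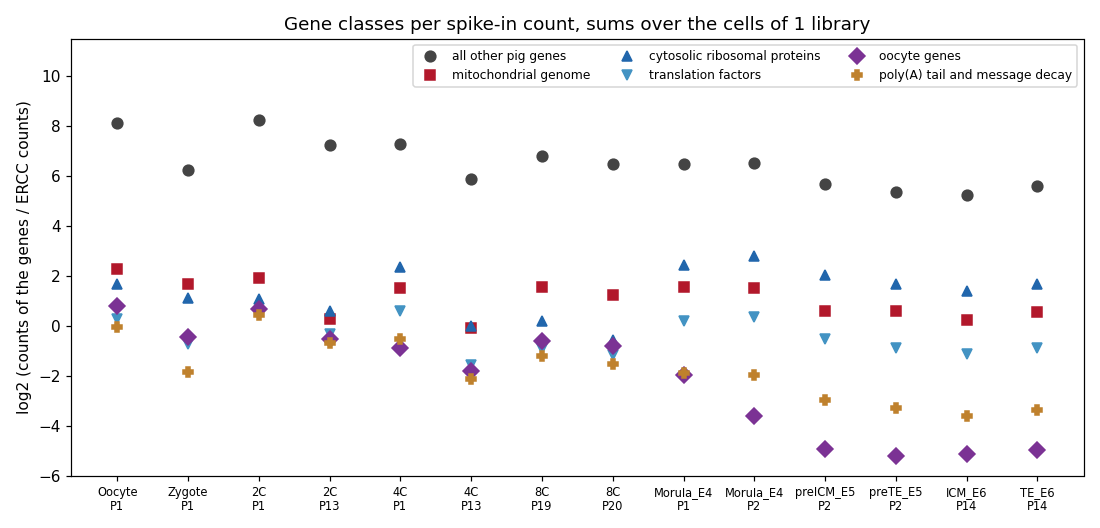
Log2 of the counts of a gene class over ERCC counts (vertical axis), summed over the cells of a group in 1 library (horizontal axis, stage order); each symbol is a class. Ribosomal protein messages stand near 0 in the 8C libraries (0.19 and -0.56) and at 2.45 and 2.81 in Morula_E4, while mitochondrial transcripts are between 1.26 and 1.57 in these 4 sums.

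The libraries labelled 8C did not fall between 4C of P1 and Morula_E4 in the ribosomal protein and oocyte classes. Against 4C of P13, 8C of P19 did fall between in the ribosomal protein class, and 8C of P20 did not. The CPM of 4C that follow are over both of its libraries. BTG4, an oocyte gene, had 374 CPM in 2C, 239.7 in 4C, 675 in 8C and 20.9 in Morula_E4, and MOS, another, 292, 119, 415 and 19.9. Other oocyte genes were mixed. OOEP went from 69.3 CPM in 4C to 322 in 8C, but BMP15 from 434 to 318 and ZP3 from 126 to 54.8. Of 18 oocyte genes, OOSP2 alone passed between 4C and 8C in the gene test below. The BTG4 and MOS values go against the order of the stage labels, and whether the label 8C is right was not tested. SULT1E1, an estrogen sulfotransferase, had 25.5 counts per 1000 ERCC counts in 4C of P1 and 2.54 in 4C of P13, 0 in both 8C libraries, and 54.5 and 63.0 in Morula_E4. For this gene the 4C cells of P13 lay nearer to the 8C cells than those of P1 did. SULT1E1 was also counted in the other units of P1, at 6.73 in Oocyte, 6.86 in Zygote and 4.92 in 2C. Transfer of counts between the cells of a library was not tested.

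Gene by gene, the change per spike-in count was tested with edgeR's quasi-likelihood test on summed counts, with the ERCC sum in place of the library size and Benjamini-Hochberg (BH) adjustment over all genes. Between Morula_E4 and the libraries labelled 8C, which share no library, so that stage and library cannot be told apart, 4908 of 17359 genes passed at an adjusted p of 0.05 (28.3%), of which 2372 were higher in Morula_E4 (13.7%) and 2536 lower (14.6%). The median change of all genes was -0.12. Of 65 ribosomal protein genes tested, 52 were higher in Morula_E4 and none lower, with a median of 3.28. Of 21 translation factors 8 were higher (median 2.09), and of 22 genes of RNA polymerase II and its general factors 7 (median 0.39). None of the 13 mitochondrial genes passed (median 0.07). Without P20 the count over all genes was 1400, without P19 1406 and without P2 1531, and without P13, which holds only earlier groups of this fit, it was 9286.

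RPS4X, a protein of the small ribosomal subunit, averaged 101.7 counts per 1000 ERCC counts in Morula_E4 and 3.32 in 8C, a log2 change of 4.94 ± 1.04 (standard error, SE; edgeR adjusted p = 0.000404). EIF4G1, the scaffold that joins the cap-binding complex to the ribosome, had 31.8 (P1) and 34.3 (P2) in Morula_E4, against 1.16 (P19) and 0.93 (P20) in 8C. Its change was 4.98 ± 1.01 (SE; edgeR adjusted p = 0.000273). EEF1G, a subunit of the exchange factor that recharges elongation factor 1, had 61.6 and 78.1 in Morula_E4, against 6.18 and 0.34 in 8C. PABPC1, the main poly(A)-binding protein of somatic cells, had 44.4 and 55.9 in Morula_E4, against 2.45 and 0.70 in 8C. For EIF4G1, EEF1G and PABPC1 both Morula_E4 libraries lay above both 8C libraries. POLR2B, one of the large subunits of RNA polymerase II, averaged 27.1 in Morula_E4 and 1.99 in 8C, and MYCN, a transcription factor that drives growth, 14.2 and 0.62. MYCN was the single member of 12 growth regulators that passed.

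Messages stored by the oocyte went the other way. Of 18 oocyte genes 9 were lower in Morula_E4 and none higher (median -1.91). BTG4, an adaptor that brings the deadenylase to maternal messages, had 2.49 (P1) and 0.16 (P2) in Morula_E4, against 79.1 (P19) and 62.0 (P20) in 8C (change -5.65 ± 1.08, SE; edgeR adjusted p = 0.000124). MOS, a kinase of meiotic arrest, had 2.16 and 1.17 in Morula_E4, against 41.7 and 40.5 in 8C. WEE2, an oocyte kinase that restrains CDK1, had 20.2 and 0.63 in Morula_E4, against 85.1 and 73.0 in 8C, and H1-8, the linker histone of the oocyte, had 9.41 and 3.59, against 83.2 and 74.3. In all 4 genes the Morula_E4 cells of P1 had more than those of P2. P1 also holds the oocytes, zygotes and 2C cells, and the part of that sharing was not tested.

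Among poly(A) tail and message decay genes, members passed in both directions, with PABPC1 higher and 6 of 28 lower in Morula_E4, BTG4 among them, beside 13.7% higher and 14.6% lower over all genes. PARN, a deadenylase, had 3.36 and 1.41 counts per 1000 ERCC counts in Morula_E4, against 30.5 and 32.2 in 8C. DCP2, which removes the cap, had 7.96 and 6.95, against 37.8 and 41.8. CPEB1, which regulates stored messages through their tails, had 2.22 and 0.16, against 16.1 and 8.43. PABPC1L and PABPN1L, poly(A)-binding proteins of the egg, also fell. Of 11 widely used reference genes, 2 were higher in Morula_E4 and none was lower, with SDHA, a subunit of succinate dehydrogenase, among the higher ones (change 2.69), a share near that over all genes.

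The largest single changes went to genes nearly silent on one side. XPNPEP2, a membrane aminopeptidase, had 19.8 and 26.2 counts per 1000 ERCC counts in Morula_E4 and no count in either 8C library, and so was at least 2734-fold higher, with 3 counts over the 8C group as the floor. SULT1E1 was at least 7308-fold and the tachykinin gene TAC4 at least 1467-fold higher by the same floor. SLC9A9, a sodium-proton exchanger of endosomes, had no count in Morula_E4, against 6.88 and 5.27 in 8C, and was at least 138-fold lower. FAM151A and CDC42EP1, an effector of the GTPase CDC42, rose by 12.28 and 11.73. OOSP2, secreted by oocytes, fell by 8.67, and IL28B, STPG2 and FBLN1, an extracellular matrix protein, were lower by the changes -9.16, -8.20 and -7.98.

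Between 8C and 4C, 1033 of 17359 genes passed (5.95%), 102 higher (0.588%) and 931 lower (5.36%) in 8C, with a median change of -0.30. Of 65 ribosomal protein genes 10 were lower and none higher (median -2.33), and of 21 translation factors 4 were lower, EIF3A, EIF3B, EIF4G1 and EEF1D. MYC and MYCN, PABPC1 and POLR2B also fell, and OOSP2 was the single oocyte gene that rose. Named by size were ODAPH (5.85), RASL11A (4.19) and GFI1B, a transcriptional repressor (4.11), higher in 8C, and SULT1E1, the adhesion molecule NRCAM, CDC42EP1 and VGLL2, a cofactor of TEAD proteins, lower. The direction depended on the 4C cells of P1. MYC had 0.90 and 1.65 counts per 1000 ERCC counts in 8C, against 32.3 (P1) and 0.19 (P13) in 4C. Without P1, 1641 genes passed, of which 1425 were higher and 216 lower, and MYC had a change of 2.77 and POLR2B of 0.15. Without P13 5795 passed, and without P19 or without P20 none did, with 2211 and 1508 at an unadjusted p under 0.05.

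Between 4C and 2C edgeR called 0 of 17359 genes (0%), with 4603 at an unadjusted p under 0.05 and a median change of -1.33. DESeq2 with the same spike-in scaling called 2349, of which 2310 were lower in 4C. Without P13 edgeR called 4574 (656 higher, 3918 lower) and without P1 1021, all lower. With the library as a block in P1 and P13, an alternative chosen after seeing the data, 124 of 12813 genes passed by edgeR, all lower in 4C. By list the median change was -1.29 over poly(A) tail and decay genes, -1.58 over oocyte genes, -0.49 over mitochondrial genes, 0.98 over ribosomal protein genes and 0.42 over translation factors. With scaling by trimmed mean of M values (TMM) on pig genes the median of all genes was 0.05.

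Among the later lineages no difference in content passed a test. Comparisons were made within a library and day, with an exact two-sided sign-flip permutation test over libraries, and BH adjustment over the 6 within-library comparisons gave 0.688 for each. Hypoblast, the lining that forms the yolk sac, differed from epiblast, the source of the embryo proper, by -0.11 ± 0.48 (SD, n = 6 libraries, exact permutation p = 0.656). It was higher in 3 libraries (P4 by 0.38, P8 by 0.03, P9 by 0.44) and lower in 3. Trophectoderm, the outer layer that forms the placenta, differed from inner cell mass or epiblast by -0.17 ± 0.75 (n = 6, p = 0.656) and from hypoblast by -0.75 ± 1.08 (n = 6, p = 0.219), with exact permutation p-values. Mesoderm differed from ectoderm by -0.08 ± 0.38 (n = 6, exact permutation p = 0.688). With 6 libraries the smallest p is 0.0312.

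**Figure D4:**
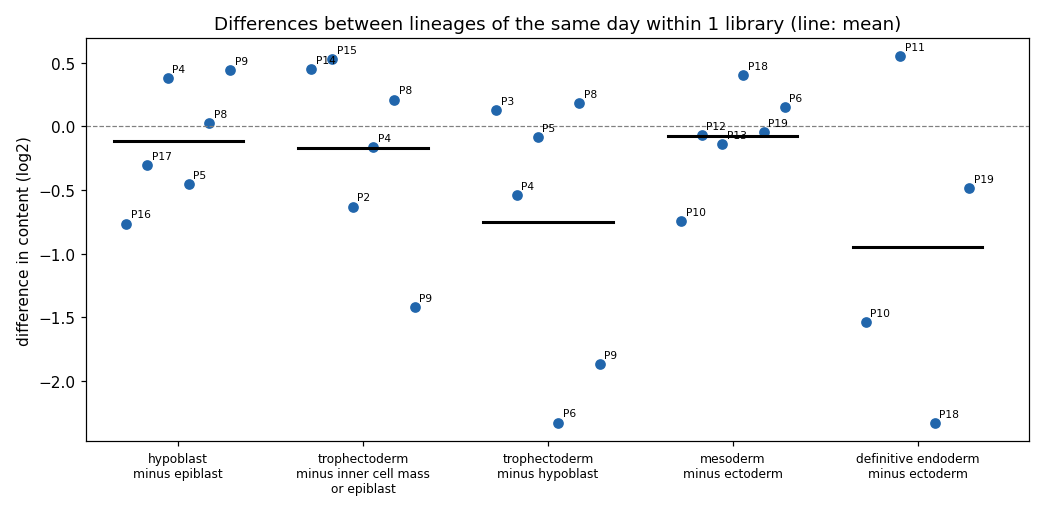
Difference in content on the log2 scale (vertical axis) between 2 lineages of the same library and day, for 5 pairs of lineages; each point is a library, labelled, and each black line is the mean. Points lie on both sides of 0 in all 5 pairs, and the lowest are P18 for endoderm and P6 for trophectoderm minus hypoblast, both at -2.33.

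Endoderm, the layer that lines the gut, was lower than ectoderm in 3 of 4 libraries, with 4.11 against 5.65 in P10 (E12), 3.40 against 5.73 in P18 (E13) and 5.05 against 5.53 in P19 (E13). In P11 (E14) it was higher, at 5.49 against 4.94. The mean was -0.95 ± 1.25 (SD, n = 4, exact permutation p = 0.375, smallest possible 0.125), and -1.45 without P11 and -0.49 without P18. With cells of at least 6000 detected genes it was -0.29 (3 libraries), and with at least 10 cells per unit -0.49 (2 libraries). The unit of P10 carries the column name Endoderm and those of E13 and E14 Defi_Endoderm, and all were counted as endoderm, though their markers differed. Endoderm_E12 had 248 CPM of HNF4A and 632 of COL4A1, both on the hypoblast list, against 87.6 and 487 in Hypoblast_E10. SOX17, a transcription factor of endoderm and hypoblast, had 64.4 CPM in Endoderm_E12, 175 in Defi_Endoderm_E13 and 9.35 in Defi_Endoderm_E14, the group with the opposite sign. The part of these marker differences in the result was not tested. Few cells stand behind these values, 18, 5, 7 and 13 in P10, P18, P19 and P11.

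On average over libraries, mitochondrial transcripts lay closer together between endoderm and ectoderm, and between trophectoderm and hypoblast, than all other genes did. In P10 the 18 Endoderm_E12 cells had a median of 0.11 mitochondrial counts per ERCC count on the log2 scale, against 0.26 in the 26 Ectoderm_E12 cells, while content differed by -1.54. Over the 4 libraries the mitochondrial difference between endoderm and ectoderm was -0.01 ± 0.41 (SD), beside -0.80 ± 1.09 for all other genes. In P11 alone it was 0.56, above the 0.45 of all other genes. Between trophectoderm and hypoblast the differences were 0.04 ± 0.63 for mitochondrial transcripts and -0.92 ± 0.88 for all other genes (n = 6 libraries). Hypoblast minus epiblast went the other way, with -0.35 ± 0.30 for mitochondrial transcripts and -0.06 ± 0.40 for all other genes (n = 6 libraries). In TE_E7 of P9, the lowest trophectoderm unit of a comparison at 3.52, mitochondrial counts per ERCC count were 0.57, against 0.25 in Hypoblast_E7 and 0.42 in Epiblast_E7 of that library. Their share of pig counts was 13.2%, against 3.03% and 4.22%. The part of cell damage in these differences was not tested.

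**Figure D5:**
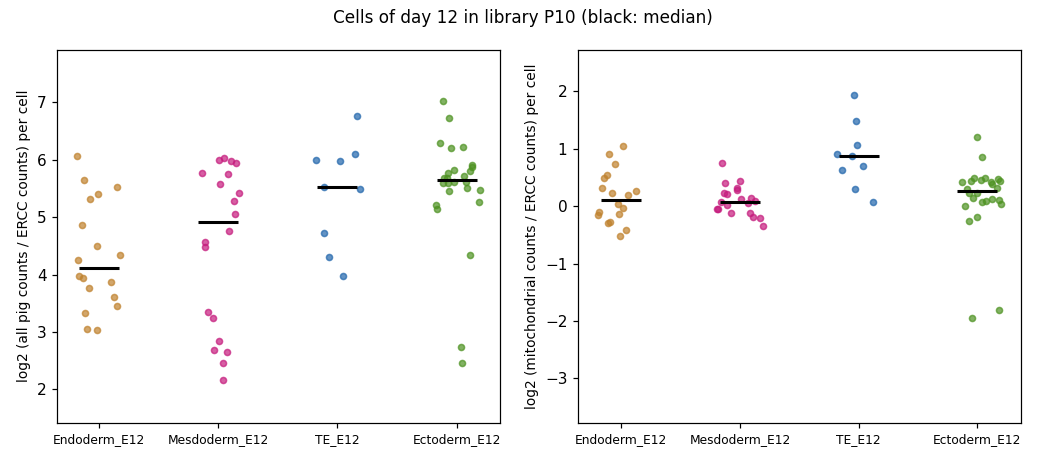
Cells of E12 in P10, with content on the left and mitochondrial counts per ERCC count on the right, both as log2 (vertical axes span the same number of log2 units); each point is a cell and each black bar a median. Content has medians of 4.11, 4.91, 5.53 and 5.65 in endoderm, mesoderm, trophectoderm and ectoderm, while the mitochondrial medians of endoderm, mesoderm, trophectoderm and ectoderm are 0.11, 0.08, 0.87 and 0.26.

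Mesdoderm_E12 of P10 also held cells of low content. Its 20 cells ran from 2.16 to 6.04, and 5 of them lay at least 2 log2 units below the median of their unit. Over all units of at least 10 cells, 26 such low cells were found in 18 of 43 units. They had a median of 5076 detected genes and 7.95% mitochondrial counts, against 9261 genes and 2.27% in the 1273 other cells. Their ERCC counts were not lower, with a median of 6855 against 6295, and their mitochondrial counts per ERCC count were -0.17 against 0.17 on the log2 scale. Content correlated across the cells of a unit with the number of detected genes (median Spearman's rho 0.84, positive in 43 of 43 units of at least 10 cells) and with the mitochondrial share (-0.65, negative in 43 of 43). Both share the pig counts with content, and cells are not independent samples.

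Hypoblast_E10 also varied widely between libraries. Its units stood at 5.06 (P16, 35 cells), 5.78 (P5, 22 cells) and 7.14 (P6, 33 cells), and the cells of P5 alone ran from 2.27 to 7.96. In P6 the hypoblast cells lay above mesoderm (5.82) and ectoderm (5.67) of E11 and TE_E10 (4.82) of the same library. Their mitochondrial counts per ERCC count were also high there, 1.34, against 0.22 in TE_E10. Their ERCC counts, with a median of 3960, were close to the 4276 of TE_E10. In P16 hypoblast was lower than Epiblast_E10, at 5.06 against 5.83.

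Although hypoblast and epiblast did not differ detectably in total content, 2449 of 17338 genes passed between them per spike-in count (14.1%), 969 higher (5.59%) and 1480 lower (8.54%) in hypoblast, by edgeR with the library and day as a block. Of the genes called, 39.6% were higher, and 54.8% with TMM scaling, where the median of all genes was 0.08 in place of -0.07. With the spike-in and a library left out, the share ran from 33.0% (without P9) to 51.4% (without P16). ADAMTS9, a protease of the extracellular matrix, had 0.55 and 0.34 counts per 1000 ERCC counts in hypoblast of E7 (P8, P9), 1.25 and 1.27 at E8 (P4, P5), 9.42 at E9 (P17) and 4.85 at E10 (P16). In epiblast of the same libraries it was between 0.02 and 0.21. RSPO3, a secreted amplifier of WNT signals, averaged 12.004 in hypoblast and 0.86 in epiblast (change 3.92 ± 0.31, SE; edgeR adjusted p = 1.2e-12). NCOA7, PHLDA1 and the amino acid transporter SLC6A20 rose by 4.06, 3.90 and 3.89. ITM2A, a membrane protein, averaged 0.09 in hypoblast and 6.52 in epiblast, and EMB, DLGAP1, STEAP2 and RRAGD fell by 5.82, 5.66, 5.65 and 5.42.

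Few genes of the machinery that makes and reads messages passed between hypoblast and epiblast. None of 22 RNA polymerase II genes and none of 12 growth regulators passed, and of 66 ribosomal protein genes RPS27L alone was higher (0.56). Among 21 translation factors EIF4A2, an RNA helicase of initiation, was higher (0.83 ± 0.21, SE) and EIF1AX lower (-0.61). TUT4, which adds uridines to message ends, and CNOT6L, a deadenylase, were lower by -1.79 and -1.71, as was ZAR1, an egg protein that binds messages (-3.77). Of 13 mitochondrial genes ND1 (-0.46) and COX3 (-0.38) were lower and none higher. COX3 averaged 108.3 counts per 1000 ERCC counts in hypoblast and 140.6 in epiblast, and was lower in 6 of 6 libraries. H3-3A was the single one of 11 reference genes that passed (-0.87).

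Between trophectoderm and inner cell mass or epiblast, 423 of 13719 genes passed (3.08%), 204 higher (1.49%) and 219 lower (1.6%) in trophectoderm, and no member of the 8 lists was among them. The share that were higher was 58.2% with DESeq2 size factors and 48.2% with the spike-in. Leaving out a library moved the latter to between 37.2% (without P15) and 57.6% (without P9). NANOG, a pluripotency factor, averaged 0.06 counts per 1000 ERCC counts in trophectoderm and 3.49 in inner cell mass or epiblast (change -5.23 ± 0.76, SE; edgeR adjusted p = 0.000968). SOX2, another such factor, GSC, a homeobox gene, CMKLR2 and FAM111A were lower by -5.45, -5.51, -5.13 and -5.06. DAGLA, a lipase, SLC26A4, an anion exchanger, the kinase STK10, TMEM79 and ENDOD1 rose by 4.79, 4.48, 4.38, 4.36 and 4.32.

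Between mesoderm and ectoderm, 666 of 15970 genes passed (4.17%), 302 higher (1.89%) and 364 lower (2.28%) in mesoderm. The share that were higher was 45.3%, and 59.7% with TMM. With the spike-in and a library left out, it ran from 32.4% (without P18) to 66.6% (without P10). CCN4, a matrix protein and WNT target, had 0.27 (E11, P6), 0.31 (E12, P10), 11.3 and 11.4 (E13, P18 and P19) and 12.3 and 8.57 (E14, P12 and P13) counts per 1000 ERCC counts in mesoderm, against 0.13 to 0.54 in ectoderm of these libraries. The high values were those of E13 and E14. IFNGR1, a chain of the interferon gamma receptor, averaged 12.1 in mesoderm and 0.62 in ectoderm (change 3.65 ± 0.36, SE; edgeR adjusted p = 1.93e-18). KCNE1, ANKRD1 and EMP1 rose by 3.41, 3.20 and 3.20. SOX2 averaged 0.19 in mesoderm and 2.68 in ectoderm, and GDF3, a ligand of the NODAL pathway, ETV1, COL9A1 and ACSL4 fell by 3.17, 3.17, 3.01 and 2.79. POLR2B was the single one of 22 RNA polymerase II genes that passed, with a change of 1.00 ± 0.24 (SE). It was higher in 5 of 6 libraries, with 4.67 in mesoderm against 7.90 in ectoderm in P10. B2M was the single reference gene that passed (1.11).

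Between endoderm and ectoderm edgeR called 0 of 15156 genes per spike-in count (0%), with 1039 at an unadjusted p under 0.05. DESeq2 with the same scaling called 338, of which 244 were lower in endoderm, and edgeR with TMM scaling called 264, of which 208 were higher. The median change of all genes was -1.05 per spike-in count and -0.24 with TMM. Medians were -1.28 for growth regulators, -1.16 for RNA polymerase II genes, -0.79 for translation factors, -0.58 for ribosomal protein genes and -0.02 for mitochondrial genes. Without P11, the library in which endoderm had the higher content, 341 genes passed per spike-in count, 43 higher and 298 lower.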

How the data were processed

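Raw counts of 1647 cells were deposited for 29214 pig genes and 92 ERCC species. The build Sscrofa11.1, UMI-tools, featureCounts 1.6.4 and STAR 2.7.1a are named in the submitters' processing notes, without their roles, and whether a count is a read or a molecule is not stated there. A second deposited table gives group means over cells on a scale recorded as other, log2(CPM/10 + 1) by the match to the counts, with a log2 column for each stem cell group, and another file gives the deposited SDs of the same log2 values. CPM are counts per 1e+06 pig counts. Least squares on these values put each cell in 1 group. Recomputed means were within 0.001 of the deposited ones for at least 99.86% of rows, and 93.0% for Oocyte.

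Counts of a unit were summed for edgeR 4.0.16 in R 4.3.3 (filterByExpr; library and day as a block for lineages; 1 fit of all groups from Oocyte to Morula_E4 for stages). SEs were worked back from the F statistic. Of the genes, 14800 were named by the reference and 815 by matching values to the authors' table. Named genes are members of the lists and, per comparison and direction, the 5 largest changes past the threshold with at least 50 CPM and the same direction in every library pair (no overlap for stages). Some named genes are not reported here. Lists are described by counts and medians without a test. Members and lists were chosen with earlier results of these data known. Scripts were tested on simulated data. Python 3.11.15, numpy 2.4.6, pandas 2.3.3, scipy 1.17.1, matplotlib 3.10.9 and DESeq2 1.42.0 (alternative) were used. Library totals were 7415760 to 39405309 pig counts. The labels do not state whether counting used strand, so overlapping antisense genes cannot be told apart, and near-identical copies such as ribosomal protein pseudogenes may share counts.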

Additional observations from a re-analysis of the deposited data

Results flagged for a closer look

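For 8 pairs of days, all libraries of one day had the lineage difference in content on one side of 0 and all libraries of the other day on the opposite side. The change between days was not tested, and each day holds 1 or 2 libraries. Endoderm minus ectoderm was 0.55 at E14 (1 library) and -1.41 at E13 (2 libraries), a change of 1.96, and -1.54 at E12 (1 library), from which E14 differed by 2.09. Hypoblast minus epiblast was -0.31 at E9 and -0.76 at E10 (1 library each), against 0.23 at E7 (2 libraries), changes of -0.54 and -0.999. Trophectoderm minus inner cell mass or epiblast was 0.49 at E6 (2 libraries), against -0.63 at E5 (1 library), a change of 1.12, and -0.16 at E8 (1 library), a change of -0.65 relative to E6. Mesoderm minus ectoderm was -0.11 at E14 (2 libraries) and 0.15 at E11 (1 library), a change of -0.25, and -0.74 at E12 (1 library), a change of -0.89 relative to E11. By Dixon's outlier test no single library stood out in the 6 sets that could be examined, which held 4 or 6 libraries each. With so few libraries that test finds only extreme values, so outlying libraries are not excluded. Groups in fewer than 4 libraries, such as Hypoblast_E10, were not examined.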

How the results depend on the processing

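No content comparison passed a test in the main analysis. Among the alternatives, unadjusted two-sided permutation p-values were under 0.05 for cleavage over later stages without the library block (1.45, p = 4e-05), endoderm over ectoderm without it (-0.82, p = 0.0218) and trophectoderm over hypoblast from summed counts (-0.89, exact p = 0.0312, the smallest possible). Without the block, units that share a library were treated as independent, so those p-values do not measure the spread between libraries. Differences near 0 changed sign. With at least 6000 detected genes per cell trophectoderm over inner cell mass or epiblast was 0.22 and mesoderm over ectoderm 0.021, with at least 10 cells per unit the first was 0.11, without the 3 most counted ERCC species Morula_E4 over 8C was 0.0039, and without the block hypoblast over epiblast was 0.060. From summed counts Zygote over Oocyte was -1.80, with Oocyte at 8.16. Leaving out a library gave hypoblast over epiblast -0.22 to 0.016, trophectoderm over inner cell mass or epiblast -0.31 to 0.078, trophectoderm over hypoblast -0.94 to -0.44, mesoderm over ectoderm -0.17 to 0.058, 8C over 4C -0.63 to 1.70, Morula_E4 over 8C -0.35 to 0.11, 4C over 2C -2.26 to -1.03, endoderm over ectoderm -1.45 to -0.49 and cleavage over later 0.71 to 1.26; without P13 2C over Zygote was 2.03. Causes were not tested.

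Counts of genes moved by over 1.5 times as follows. Without the replicate block, the library and day, hypoblast over epiblast had 1530, trophectoderm 210, mesoderm 13 and endoderm 1. TMM, DESeq2 size factors and DESeq2 gave 692, 693 and 1220 for trophectoderm, 264, 293 and 338 for endoderm, and 98, 27 and 2016 for 8C over 4C; DESeq2 gave 2349 for 4C over 2C. With no filter on low counts trophectoderm had 712 and 4C over 2C 1. With the library block, added after seeing the data, 4C over 2C had 124. Leaving out a library gave 171 to 535 for trophectoderm, 302 to 780 for mesoderm, 0 to 341 for endoderm, 0 to 4574 for 4C over 2C, 0 to 5795 for 8C over 4C and 1400 to 9286 for Morula_E4 over 8C, while hypoblast stayed within 1.5 times, at 1913 to 2670. Of the tests of named genes, 62 lost their call under another scaling, filter or block and 507 did not, and 153 lost it without a library and 415 did not. Named genes kept their sign except in 8C over 4C without P1, where MYC was 2.77 and POLR2B 0.15 (lowest -4.66 and -4.88, without P13). Group levels moved beyond the spread in 9 of 210 cases, among them Defi_Endoderm_E13 at 5.47 and Mesdoderm_E12 at 5.57 with at least 6000 genes. The lowest cell had 158 ERCC counts, so a minimum of 100 removed none.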

Other observations

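The stem cell lines from E10 epiblast had a median content of 6.56 in the 93 pgEpiSC_low cells and 6.65 in the 96 pgEpiSC_high cells, 94.6 and 100.5 pig counts per ERCC count. Epiblast_E10 had 5.99 and 5.83 in its libraries. The stem cell libraries had median ERCC counts of 1376 and 1728 per cell, below every embryonic library median, and the labels do not say what low and high stand for. No comparison was made across these libraries.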
